A study of Mus musculus with 18 samples.

Results

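Hox genes encode homeodomain transcription factors that assign position along the body axis, and mouse chromosomes carry them in 4 clusters, Hoxa, Hoxb, Hoxc and Hoxd. The members described here are the 37 Hox genes that have a probe set annotated with their symbol alone, out of 19938 genes measured this way. They comprise 10 genes of the Hoxa cluster and 9 each of the Hoxb, Hoxc and Hoxd clusters. By paralog number, which counts from the anterior end of a cluster, 7 are anterior (1 to 3), 14 central (4 to 8) and 16 posterior (9 to 13). Each had 1 such probe set. Hoxb8 has only a probe set that it shares with Hoxb7 and was not analysed here.

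The study compared mouse embryonic stem (ES) cells with adult stem cells, which the series title describes as derived from the adult germ line, by total RNA on Affymetrix Mouse Gene 1.0 ST arrays. There were 6 groups of 3 arrays. In the 129SV background, ES and adult cells were each measured undifferentiated and differentiated. In the background labelled Stra8-EGFP/Rosa26, Stra8 for short, both were measured only undifferentiated, and the labels do not describe its alleles further. The agent and length of differentiation, the number of cell lines, the animals' age and any use of feeder cells are not given in the sources used here. Replicates are labelled as biological, with no statement that they were separate cultures, so p-values measure the spread between these samples.

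In the embryo the genes of a Hox cluster are switched on in the order in which they lie, the anterior genes first and the posterior genes last. In ES cells the clusters are known to be held silent by Polycomb complexes, and retinoic acid is a well known inducer that acts first on the anterior genes. Their proteins bind DNA together with TALE-class cofactors such as the Meis and Pbx proteins.

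All values are log2 signals. A level can be compared between groups for 1 probe set but not between probe sets, since probes differ in how strongly they bind. Array medians ran from 7.22 to 7.38, and the mean correlation of an array with the others of its group was 0.992 to 0.998. The lowest belonged to the third array of the differentiated ES cells, which read highest of its group for 8 of the 16 posterior genes. In the differentiated cells 17 of 20 pluripotency genes were called lower than in the undifferentiated cells of either origin, and 20 of 24 (ES) and 16 of 24 (adult) endoderm genes were called higher. A gene was called where limma's p-value, adjusted by the Benjamini-Hochberg method over all 19938 genes, was under 0.05.

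Differentiation of ES cells raised the anterior and most central Hox genes and lowered a group of posterior ones. Of the 37 genes, 21 were called higher and 6 lower, against 27.9% of all genes called higher and 27.3% lower. The median change over the Hox genes was 0.35 on the log2 scale, beside 0.05 over all genes. All 7 anterior genes were called higher, with a median change of 0.66. Of the 14 central genes, 10 were called higher and 1 lower, with a median of 0.46. Of the 16 posterior genes, 4 were called higher and 5 lower, with a median of -0.05. Without the third differentiated array, 20 genes were called higher and 6 lower. These are array signals of whole cultures, in which fewer cells of a type and less RNA per cell cannot be told apart.

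**Figure D1:**
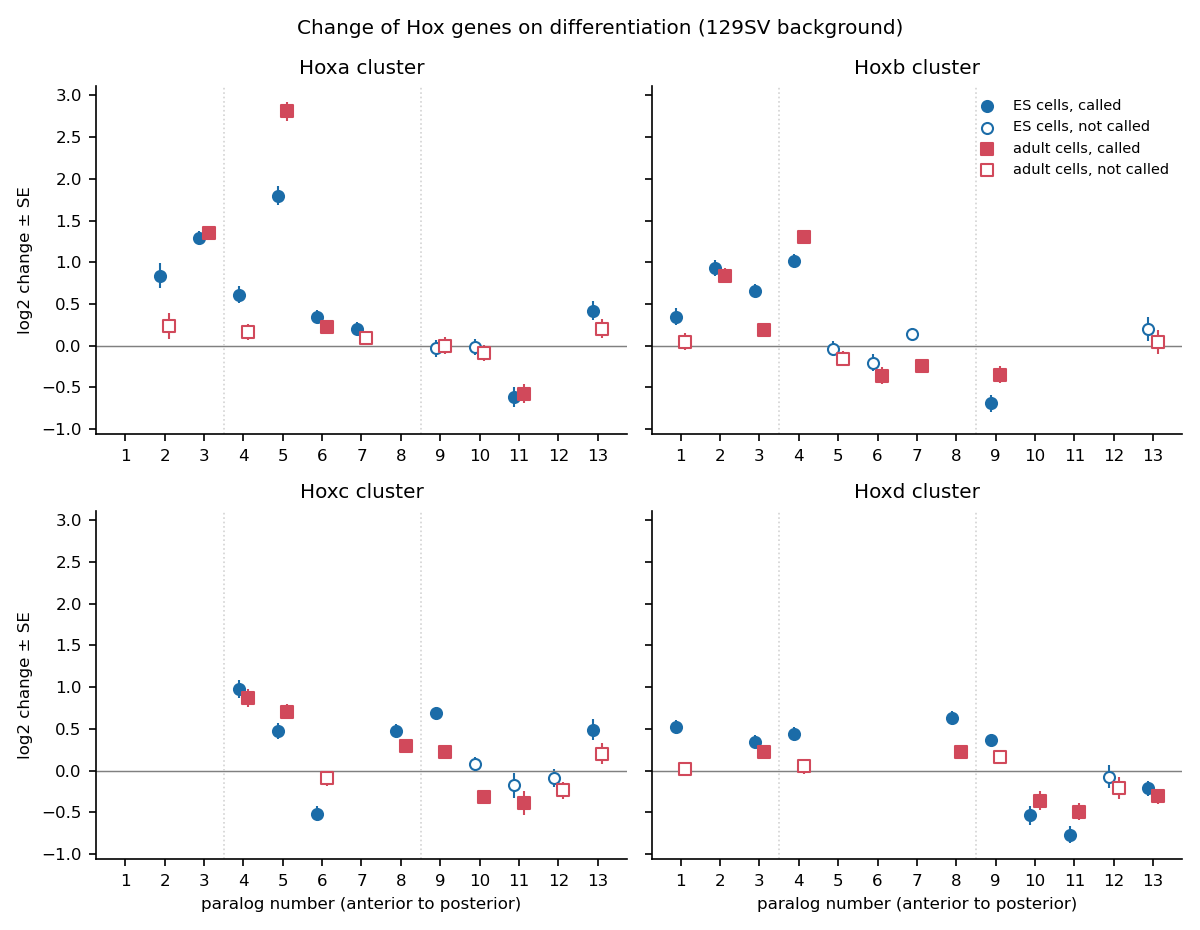
Log2 change ± SE of each Hox gene on differentiation against its paralog number, 1 panel per cluster, for ES cells (circles) and adult cells (squares) of the 129SV background. Filled symbols passed the test at an adjusted p under 0.05, and dotted lines separate anterior, central and posterior genes; Hoxa5 stands highest in both cell types, and Hoxa11, Hoxb9, Hoxd10, Hoxd11 and Hoxd13 lie below 0 in both.

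Among the anterior genes, Hoxa3, which is needed to form the thymus and parathyroid, had the largest rise. It read 6.16, 6.27 and 6.23 in undifferentiated ES cells and 7.46, 7.67 and 7.40 after differentiation. The groups did not overlap, and the change was 1.29 ± 0.08 (SE), or 2.44-fold, with an adjusted p of 5.36e-10 (limma). Hoxb2, which acts in the hindbrain, read 6.92, 6.85 and 6.94 before and 7.96, 7.81 and 7.73 after, a change of 0.93 ± 0.09. Hoxa2, known for patterning the hindbrain and the neural crest of the pharyngeal arches, rose by 0.84 ± 0.15. Hoxb3, Hoxd1, Hoxb1 and Hoxd3 rose by less.

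Of the central genes, Hoxa5 moved most in the whole set. Hoxa5 is known for its part in lung and axial skeleton development. Its 3 undifferentiated ES arrays read 6.83, 6.82 and 6.83, and its differentiated arrays 8.70, 8.81 and 8.37. The groups were far apart, with a change of 1.80 ± 0.11, or 3.48-fold, and an adjusted p of 4.09e-10 (limma).

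The genes of paralog group 4 behaved alike in direction. All 4 (Hoxa4, Hoxb4, Hoxc4 and Hoxd4) were called higher. Hoxb4, which can expand blood stem cells when overexpressed, went from 6.79, 6.60 and 6.73 to 7.75, 7.78 and 7.65, a change of 1.02 ± 0.08. Hoxc4 went from 6.95, 7.11 and 6.93 to 8.03, 8.02 and 7.85, a change of 0.97 ± 0.11. Neither gene's groups overlapped. Hoxa4 went from 7.28, 7.43 and 7.54 to 8.05, 7.88 and 8.16, again without overlap, and rose by 0.61 ± 0.10.

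Not every central gene rose. Hoxb5 (mean 6.77 to 6.74), Hoxb6 (7.83 to 7.62) and Hoxb7 (7.08 to 7.22) were not called. Hoxc4 and Hoxc5 on one side of Hoxc6, and Hoxc8 and Hoxc9 on the other, were called higher. Hoxc6 itself, a thoracic-level gene, was the only central gene called lower. It read 8.25, 8.19 and 8.26 in undifferentiated ES cells and 7.71, 7.72 and 7.71 after differentiation. The arrays within each group differed by less than 0.1, and the groups did not overlap. The change was -0.52 ± 0.09, with an adjusted p of 0.000154 (limma). Hoxc8, which patterns the lower thoracic region, went the other way, from 7.54, 7.51 and 7.47 to 8.07, 7.90 and 7.97, a change of 0.47 ± 0.08.

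Of the 5 posterior genes that fell, 3 lie in the Hoxd cluster. Hoxd11, which with Hoxa11 shapes the forearm and the kidney, read 7.39, 7.55 and 7.66 before and 6.70, 6.58 and 7.02 after, and changed by -0.77 ± 0.10. Hoxb9, which helps to set rib identity, read 8.22, 8.28 and 8.32 before and 7.37, 7.56 and 7.82 after, and changed by -0.69 ± 0.10. For both genes every differentiated array lay below every undifferentiated one, and the third differentiated array was the highest of its group. Hoxa11 changed by -0.62 ± 0.12 and Hoxd10 by -0.54 ± 0.12. Hoxd13, the digit gene at the posterior end, went from 6.54, 6.70 and 6.44 to 6.25, 6.40 and 6.38, a change of -0.22 ± 0.09 with an adjusted p of 0.0417 (limma), so this call lies close to the threshold. It was the weakest of the 6 falls and was lost in 8 of 14 refits under other settings. Hoxa11, Hoxd10 and Hoxd13 were dim, with every group mean below 7.29, the median of all values. The same holds for Hoxa2, Hoxa6, Hoxa7, Hoxa13, Hoxc13, Hoxd1, Hoxd3 and Hoxd4, which were called higher. The posterior genes called higher were Hoxc9, Hoxc13, Hoxa13 and Hoxd9. Hoxa9, Hoxa10, Hoxb13, Hoxc10, Hoxc11, Hoxc12 and Hoxd12 were not called.

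**Figure D2:**
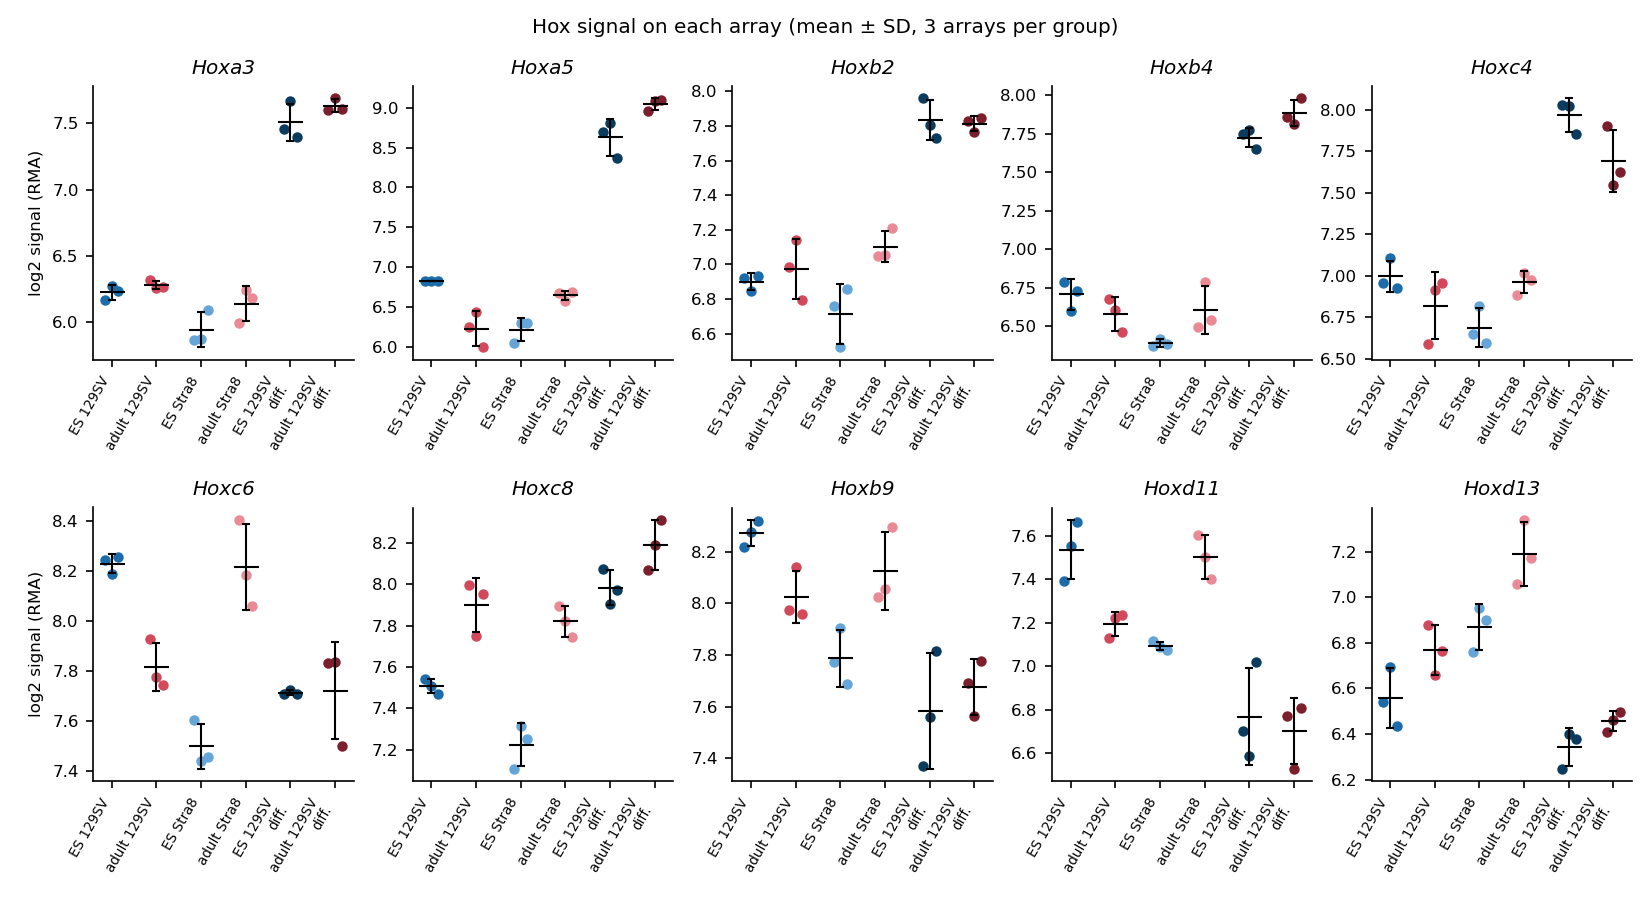
Log2 RMA signal of 10 Hox genes on each of the 18 arrays by group, with the mean ± SD of the 3 arrays in black; each panel has its own axis, which does not start at 0. Hoxa3, Hoxa5, Hoxb2, Hoxb4 and Hoxc4 are highest in the 2 differentiated groups (dark blue and dark red), and Hoxb9, Hoxd11 and Hoxd13 are lowest there.

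Differentiation of adult 129SV cells gave fewer rises and more falls of Hox genes than that of ES cells. Falls were also more frequent over all genes, at 32.2% beside 27.3% on ES differentiation. Of the 37 genes, 12 were called higher and 9 lower, beside 27.5% of all genes called higher and 32.2% lower, and the median change was 0.05 over the Hox genes and -0.08 over all genes. By position, 4 of 7 anterior genes were called higher and none lower, 7 of 14 central genes higher and 2 lower, and 1 of 16 posterior genes higher and 7 lower. The medians were 0.22, 0.19 and -0.22 in that order.

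Hoxa5 again moved most. It read 6.26, 6.44 and 6.00 in undifferentiated adult cells and 8.95, 9.08 and 9.09 after differentiation, which is a change of 2.81 ± 0.11, or 7.01-fold, with an adjusted p of 1.57e-12 (limma). Hoxa3 went from 6.31, 6.26 and 6.26 to 7.60, 7.69 and 7.61, a change of 1.35 ± 0.08. Hoxb4 went from 6.68, 6.60 and 6.46 to 7.86, 7.81 and 7.98, a change of 1.30 ± 0.08. For each of these genes the groups were apart. Hoxc4 rose by 0.87 ± 0.11, Hoxb2 by 0.84 ± 0.09 and Hoxc5 by 0.71 ± 0.09. Hoxa4 read 7.51, 7.62 and 7.76 before and 7.62, 7.79 and 7.97 after, so its groups overlapped and it was not called.

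The falls in adult cells were smaller than the largest rises. Hoxa11 changed by -0.57 ± 0.12, Hoxd11 by -0.49 ± 0.10, Hoxc11 by -0.39 ± 0.14, Hoxb6 by -0.36 ± 0.10, Hoxd10 by -0.36 ± 0.12 and Hoxb9 by -0.35 ± 0.10. Hoxd11 read 7.13, 7.22 and 7.23 before and 6.77, 6.53 and 6.81 after, and Hoxb9 read 7.97, 8.14 and 7.96 before and 7.69, 7.56 and 7.78 after. Neither pair of groups overlapped. All 3 genes of paralog group 11 (Hoxa11, Hoxc11 and Hoxd11) were called lower in adult cells, and 2 of the 3 in ES cells, where Hoxc11 was not called. The adult call of Hoxc11 was lost without the second or the third differentiated or the first undifferentiated array (adjusted p 0.0505 to 0.1004, limma). That of Hoxd10 was lost without the first or the second differentiated or the first undifferentiated array (0.0515 to 0.0827). Hoxc6, which fell in ES cells, read 7.93, 7.78 and 7.74 before and 7.83, 7.84 and 7.50 after in adult cells and was not called.

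The ES and adult differentiation comparisons share no arrays, so they can be set side by side. They are not fully independent. Same-numbered differentiated adult and ES arrays deviated together (r 0.144 to 0.442), and both comparisons used the same estimate of the spread. Both called 12 genes higher (Hoxa3, Hoxa5, Hoxa6, Hoxb2, Hoxb3, Hoxb4, Hoxc4, Hoxc5, Hoxc8, Hoxc9, Hoxd3 and Hoxd8), which is every gene called higher in adult cells and 12 of the 21 called in ES cells. Both called 5 lower (Hoxa11, Hoxb9, Hoxd10, Hoxd11 and Hoxd13), of 6 in ES and 9 in adult cells, and none was called in opposite directions. The sign of the change was shared by 35 of 37 genes, and over these genes the changes had Pearson's r of 0.87 and Spearman's rho of 0.91. Genes are not independent replicates, and these values describe the 37 genes on these arrays.

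The change also tended to be lower at higher paralog numbers, but it did not decline steadily from the first gene. In Hoxa and Hoxb the largest rises were those of Hoxa5 and Hoxb4, and in Hoxc that of Hoxc4, its lowest-numbered member. In adult cells Hoxb1 (mean 7.68 to 7.73), Hoxd1 (6.59 to 6.61) and Hoxa2 (5.73 to 5.96) were not called. Over the 37 genes, Pearson's r between the change and the paralog number was -0.54 (Spearman's rho -0.58) in ES cells and -0.43 (rho -0.52) in adult cells. Within clusters r in ES cells was -0.66 for Hoxa (10 genes), -0.54 for Hoxb, -0.29 for Hoxc and -0.67 for Hoxd (9 genes each). In adult cells it was -0.45, -0.41, -0.69 and -0.64 in the same order. The sign was negative in each cluster and cell type, with the weakest relation for Hoxc in ES cells, where Hoxc6 fell and Hoxc9 and Hoxc13 rose. The points of a correlation share the same arrays, and neighbouring genes share a locus.

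Whether the 2 cell types responded unequally was tested gene by gene as the change in adult cells minus the change in ES cells. This difference was called positive for 2 Hox genes and negative for 9, beside 24.2% and 21.5% of all genes. Hoxa5 rose by more in adult cells, with a difference of 1.01 ± 0.16 and an adjusted p of 6.82e-05 (limma). Hoxc6 had a difference of 0.42 ± 0.13, from a fall in ES cells beside no call in adult cells. The negative differences were led by Hoxa2 (-0.61 ± 0.22), Hoxd1 (-0.51 ± 0.11), Hoxb3 (-0.47 ± 0.11), Hoxc9 (-0.46 ± 0.11), Hoxa4 (-0.45 ± 0.14) and Hoxd8 (-0.41 ± 0.12). These 6 genes rose in ES cells by more than in adult cells, and Hoxa2, Hoxd1 and Hoxa4 were not called in adult cells at all. The call for Hoxa2 was lost in 11 of 20 refits under other settings. Without the third differentiated ES array, 4 differences were called positive and 9 negative.

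The end points of the 2 differentiations differed for 9 genes. Between differentiated adult and differentiated ES cells, 1 Hox gene was called higher and 8 lower, beside 19.4% and 12.8% of all genes, and the median difference was -0.08. Hoxa5 was the gene called higher, at 8.95, 9.08 and 9.09 in adult and 8.70, 8.81 and 8.37 in ES cells, a difference of 0.41 ± 0.11. Hoxd8 (-0.54 ± 0.08), Hoxc13 (-0.47 ± 0.13), Hoxd1 (-0.45 ± 0.08), Hoxc10 (-0.34 ± 0.08), Hoxd4 (-0.33 ± 0.09) and Hoxc9 (-0.27 ± 0.08) had the largest negative differences among the genes called, and Hoxb7 and Hoxd9 were also called lower. In the same comparison 14 of 20 pluripotency genes were called higher in adult cells and 3 lower, and their mean signal was 9.69 to 9.73 on adult and 9.24 to 9.29 on ES arrays. Their part in these differences was not tested. Of the 8 genes, 4 lie in the Hoxd cluster and 3 in the Hoxc cluster. When only the 6 arrays of these groups were fitted, Hoxa5, Hoxd4 and Hoxc9 lost their calls and 4 genes were called lower. Hoxc9 also lost its call without the first ES or the second adult array. Without the second adult array 5 were called lower, and 2 were called higher without the first ES or the first adult array.

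All members with a promoter window were examined for sequence near their starts, since retinoic acid receptors bind pairs of the half-site AGGTCA. RefSeq start sites (assembly GRCm38.p6) gave windows from 250 bases before to 50 after the start for 21 of the 37 genes, 23 windows in all. In the Hoxb and Hoxc clusters only Hoxb1, Hoxb4 and Hoxc4 had a window, so the windows stand mainly for Hoxa and Hoxd. AGGTCA, read on either strand, occurred in 7 of the 23 (30.4%), against 16.3% of the 32851 windows of all genes. It was the most frequent in these windows of 6 motifs searched, which include the direct repeats given below. A CDX-type motif (TTTATG) was in 4 of the 23, against 11.9% of all windows. A PBX-HOX-type motif (TGATNNAT) was in 3, against 8.8%, and the TATA box (TATAAA) in 3, against 13.6%. Whether any of these shares differed beyond sampling was not tested. The stretches are printed with the half-site in capitals, which reads TGACCT where it lies on the opposite strand, and up to 12 bases on either side.
Hoxa5: gtttacctctagAGGTCAtca
Hoxb4: tcagcgcccctaTGACCTagtgggtaccca
Hoxc4: ggcgctgccctgTGACCTacacagactgca
Hoxd3: tagacctttttaTGACCTatttgcggtcgt
Hoxd4: ttgatatgaataTGACCTctctcgcattct
Hoxd8: ttcgctttgataAGGTCAggattcggaggc
Hoxd10: ctggggaacacgTGACCTgcaaggaggctg

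In GRCm38.p6 these stretches lie at chr6:52204538-52204558 on the minus strand for Hoxa5, where the half-site begins 41 bases after the start, and on the plus strand for the others. Hoxb4 has its stretch at chr11:96318174-96318203, with the half-site 81 bases before the start, and Hoxc4 at chr15:103034237-103034266, 146 bases before. The Hoxd stretches lie at chr2:74711820-74711849 for Hoxd3 (161 bases before the start), chr2:74721821-74721850 for Hoxd4 (145), chr2:74704468-74704497 for Hoxd8 (135) and chr2:74691810-74691839 for Hoxd10 (69). On ES differentiation 6 of these 7 genes were called higher and Hoxd10 lower. Of the 14 genes whose windows held no half-site, 8 were called higher and 3 lower. Of the 16 genes without a window, 7 were called higher and 2 lower. On adult differentiation the counts were 5 higher and 1 lower of 7, 2 and 3 of 14, and 5 and 5 of 16. A link between half-site and call was not tested. A direct repeat of the half-site 5 bases apart (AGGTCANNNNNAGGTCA) or 2 bases apart (AGGTCANNAGGTCA), read on either strand, was in none of the 23 windows and in 0.00913% of all windows for each spacing. A match is a run of letters and not a measured binding site.

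Besides the protein-coding genes, the clusters hold non-coding transcripts, of which 9 had probe sets and were looked at after the Hox results were known. Mir10a, in the Hoxb cluster beside Hoxb4, and Mir10b, in the Hoxd cluster beside Hoxd4, encode microRNAs that share a seed (bases 2 to 8, in capitals). The RefSeq mature sequences show how close these microRNAs are.
miR-10a-5p: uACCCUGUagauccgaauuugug
miR-10b-5p: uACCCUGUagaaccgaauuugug

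They lie on the plus strand of GRCm38.p6 at chr11:96317186-96317208 and chr2:74726074-74726096, and differ only by U12A, with positions counted from the 5′ end of miR-10a. The probe sets read RNA of the locus and not the mature microRNA. Both read below 7.29, the median of all values, on every array. No detection calls were used, so whether they lie above background is not known. Mir10b read 3.11, 3.80 and 3.46 in undifferentiated and 5.39, 5.39 and 4.69 in differentiated ES cells, a change of 1.70 ± 0.21 with an adjusted p of 1.82e-06 (limma), without overlap. In adult cells it went from 3.21, 3.85 and 3.29 to 4.33, 4.63 and 4.40, a change of 1.00 ± 0.21. Mir10a rose by 0.89 ± 0.19 in ES cells (adjusted p 0.000606, limma), while its adult change of 0.43 ± 0.19 did not pass (adjusted p 0.0622).

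Hoxaas2, an antisense transcript of the Hoxa cluster, rose by 0.85 ± 0.11 in ES and by 0.59 ± 0.11 in adult cells. Its group means, 6.23 to 7.16, all lay below 7.29, the median of all values. Mir196a-1, Mir196a-2, Mir196b, Mir615, Hottip and Hoxd3os1 were not called in either differentiation comparison. Whether probes of Hoxaas2 overlap Hoxa genes was not tested.

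**Figure D3:**
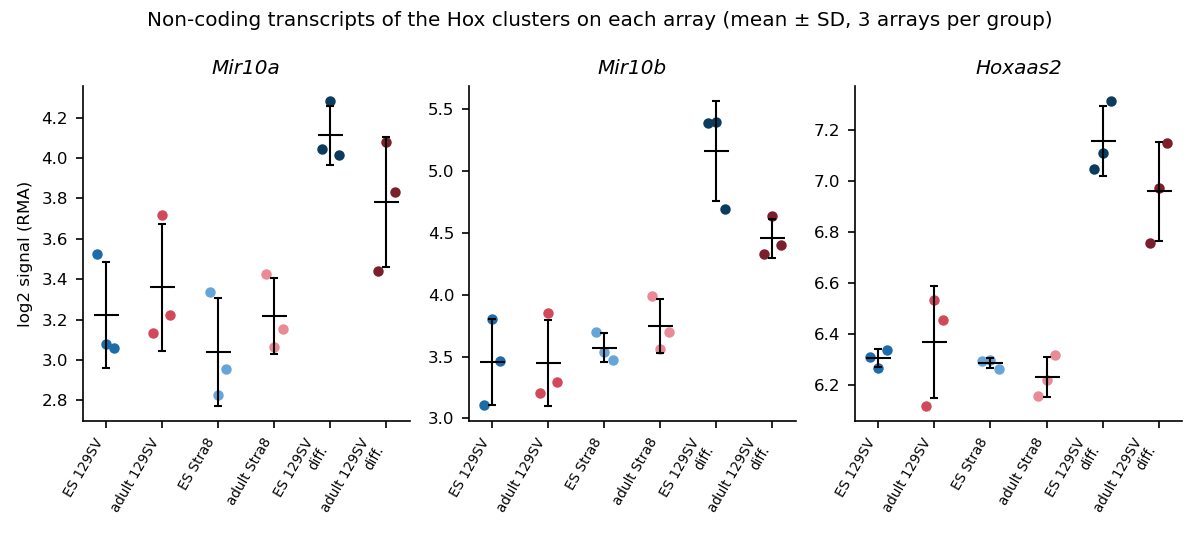
Log2 RMA signal of Mir10a, Mir10b and Hoxaas2 on each array by group, with the mean ± SD of 3 arrays in black; axes do not start at 0. Mir10b and Hoxaas2 are higher on every differentiated array than on every undifferentiated array of the same origin in 129SV, and Mir10a overlaps between the adult groups. Mir10a and Mir10b lie below the median of all values, 7.29, on every array, and every group mean of Hoxaas2 lies below it.

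Undifferentiated adult and ES cells of the 129SV background differed at few Hox genes. Of 37, 2 were called higher in adult cells and 4 lower, beside 23.0% and 23.1% of all genes, and the median difference was 0.05, as it was 0.06 over all genes. Hoxa5 was lower in adult cells, at 6.26, 6.44 and 6.00 against 6.83, 6.82 and 6.83 in ES cells, a difference of -0.60 ± 0.11. Hoxd10 (-0.46 ± 0.12), Hoxc6 (-0.41 ± 0.09) and Hoxd11 (-0.34 ± 0.10) were lower, and Hoxc8 (0.39 ± 0.08) and Hoxb3 (0.32 ± 0.08) higher. For each of these genes the groups were apart. The count of genes called higher was 4 without the first or the third adult array, 4 with array weights and 7 when the arrays were centred on their medians. Hoxd11 lost its call without the third ES array (adjusted p 0.0600, limma).

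In the Stra8 background adult cells had 15 Hox genes called higher than in ES cells and none lower, beside 13.2% and 15.1% of all genes, and the median difference was 0.22, beside -0.0033 over all genes. All 14 central genes had a positive difference and 7 of them were called, as were 7 of 16 posterior genes and 1 of 7 anterior genes. By cluster, 5 Hoxc and 5 Hoxd genes were called, with 3 of Hoxb and 2 of Hoxa. Without the first ES Stra8 array the count was 10 and Hoxa5 lost its call. In this comparison 14 of 20 pluripotency genes were called lower in adult cells and none higher, with a mean signal of 10.8 to 10.9 on adult and 11.2 to 11.3 on ES arrays. In 129SV it was 7 lower and 3 higher. Their part in the Hox differences was not tested.

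Hoxc6 had the largest difference in Stra8. It read 8.40, 8.18 and 8.06 in adult and 7.60, 7.44 and 7.45 in ES cells, which is 0.72 ± 0.09 higher, or 1.65-fold, with an adjusted p of 2.28e-05 (limma). Hoxc5 differed by 0.60 ± 0.09. Hoxc8 read 7.89, 7.82 and 7.74 in adult and 7.11, 7.31 and 7.25 in ES cells, a difference of 0.59 ± 0.08. These 3 genes are neighbours in the Hoxc cluster. Hoxb6 (0.49 ± 0.10), Hoxd10 (0.48 ± 0.12) and Hoxa5 (0.43 ± 0.11) followed.

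**Figure D4:**
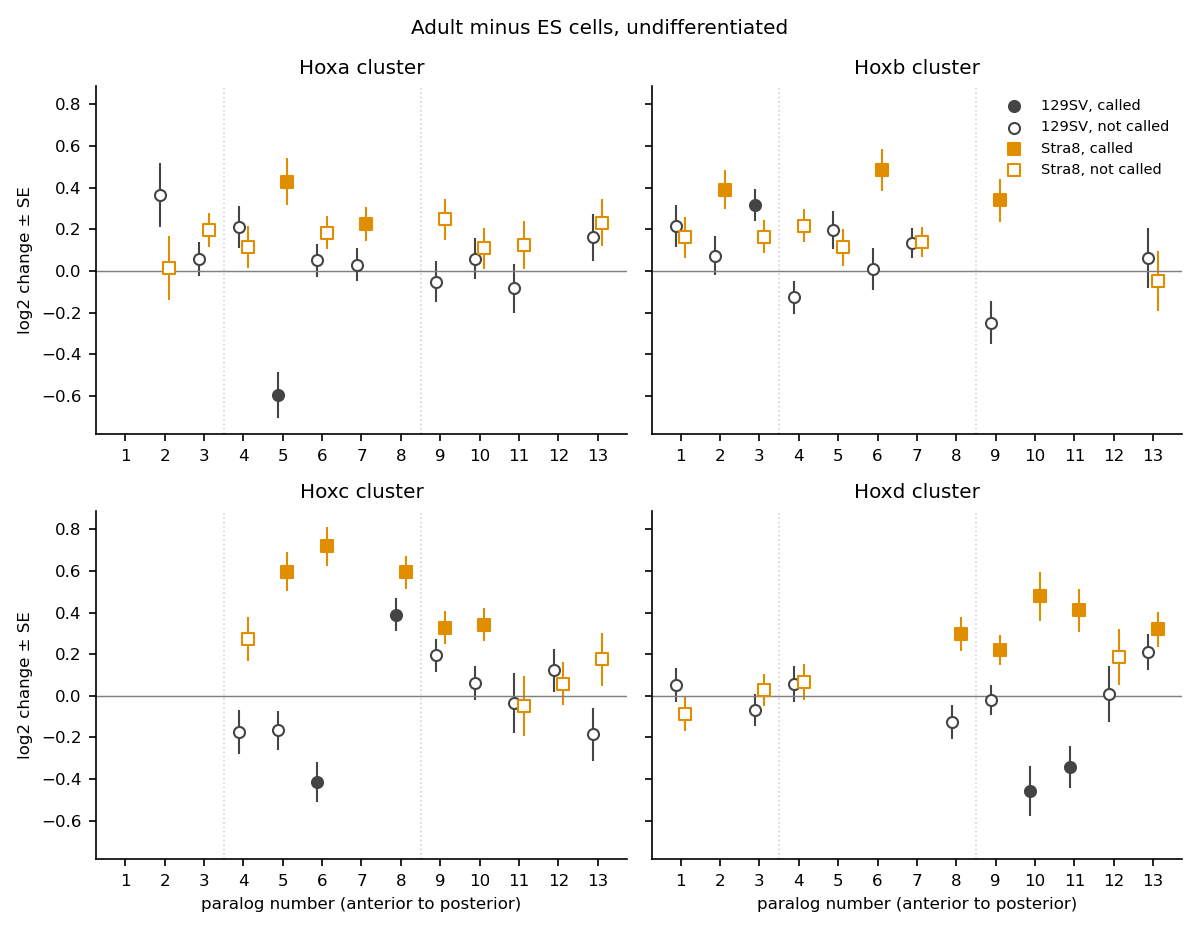
Log2 difference ± SE between undifferentiated adult and ES cells for each Hox gene against its paralog number, 1 panel per cluster, in 129SV (circles) and Stra8 (squares). Filled symbols passed the test; Hoxa5, Hoxc6, Hoxd10 and Hoxd11 lie below 0 in 129SV and above 0 in Stra8.

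The 129SV and Stra8 comparisons of adult with ES cells share no arrays, and 5 genes were called in both. Hoxc8 was higher in adult cells in both, while Hoxa5, Hoxc6, Hoxd10 and Hoxd11 were lower in adult cells of 129SV and higher in those of Stra8. The difference between the backgrounds, tested directly, was called positive for 10 Hox genes and negative for none, beside 21.3% and 21.8% of all genes. The largest were Hoxc6 (1.13 ± 0.13), Hoxa5 (1.03 ± 0.16), Hoxd10 (0.93 ± 0.17), Hoxc5 (0.76 ± 0.13), Hoxd11 (0.75 ± 0.14) and Hoxb9 (0.59 ± 0.15). Of the 10 genes, 7 are central and 3 posterior, and no anterior gene was called.

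The backgrounds were also compared within each cell type. In undifferentiated ES cells 2 Hox genes were called higher in Stra8 than in 129SV and 15 lower, beside 21.3% and 20.0% of all genes, with a median of -0.20. In undifferentiated adult cells 9 were called higher and 1 lower, beside 24.2% and 26.8% of all genes, with a median of 0.01. These comparisons use the same arrays as the comparisons of adult with ES cells and are another view of the same values.

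In ES cells the lower genes were led by Hoxc6 (-0.73 ± 0.09), Hoxa5 (-0.61 ± 0.11), Hoxd10 (-0.58 ± 0.12), Hoxb9 (-0.49 ± 0.10), Hoxb6 (-0.46 ± 0.10) and Hoxd11 (-0.44 ± 0.10). Hoxd11 read 7.39, 7.55 and 7.66 in 129SV and 7.11, 7.09 and 7.08 in Stra8 ES cells. All 14 central genes had a negative difference, of which 7 were called.

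In ES cells Hoxc12 and Hoxd13, toward the posterior end of the Hoxc and Hoxd clusters, went the other way. Hoxc12 (0.56 ± 0.10) and Hoxd13 (0.31 ± 0.09) were called higher in Stra8 ES cells, and Hoxc13 (0.69 ± 0.13), Hoxc12 (0.50 ± 0.10), Hoxd13 (0.42 ± 0.09), Hoxa5 (0.42 ± 0.11), Hoxc6 (0.40 ± 0.09) and Hoxc5 (0.35 ± 0.09) led the genes called higher in Stra8 adult cells. Hoxc12 and Hoxd13 were thus higher in Stra8 than in 129SV in both cell types, which share no arrays. Hoxd13 read 6.54, 6.70 and 6.44 in 129SV and 6.76, 6.95 and 6.90 in Stra8 ES cells, and 6.88, 6.66 and 6.77 in 129SV and 7.06, 7.34 and 7.17 in Stra8 adult cells. In neither cell type did the backgrounds overlap. Hoxc12, Hoxc13 and Hoxd13 had every group mean below 7.29, the median of all values, and no detection calls were used. Hoxb5 (-0.23 ± 0.09) was the gene called lower in Stra8 adult cells, and it lost its call in 9 of 14 refits under other settings, quantile normalisation among them.

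The order of the 6 groups differed between genes. Hoxc6 was highest in ES 129SV (mean 8.23 ± 0.04 SD, n = 3) and adult Stra8 (8.22 ± 0.17), which do not differ beyond their spread, then adult 129SV (7.82 ± 0.10), adult differentiated (7.72 ± 0.19) and ES differentiated (7.71 ± 0.01), and lowest in ES Stra8 (7.50 ± 0.09). Hoxa5 ran from adult differentiated (9.04 ± 0.07) and ES differentiated (8.63 ± 0.23) through ES 129SV (6.83 ± 0.0036) and adult Stra8 (6.65 ± 0.06) to adult 129SV (6.23 ± 0.22) and ES Stra8 (6.22 ± 0.14), the last pair not differing beyond their spread. Hoxd13 was highest in adult Stra8 (7.19 ± 0.14) and lowest in ES differentiated cells (6.34 ± 0.08). At the other extreme, the 6 group means of Hoxa10 spanned 0.27, those of Hoxa9 and Hoxb7 0.28 each and those of Hoxd12 0.30, the narrowest ranges of the set.

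Markers of fibroblasts moved with several of these differences. The mean signal of 21 fibroblast genes was 10.5 to 10.6 on the ES 129SV arrays, 10.1 to 10.2 on adult Stra8, 9.71 to 9.78 on adult 129SV and 9.34 to 9.40 on ES Stra8. This is the order of Hoxc6 in the same 4 groups. In the Stra8 background 21 of 21 were called higher in adult cells, and in 129SV 17 were called lower and 2 higher. Decorin (Dcn), a matrix protein of fibroblasts, was at 12.7 in ES 129SV, 12.5 in adult Stra8, 11.7 in ES Stra8 and 10.2 in adult 129SV, and none of the 4 groups was without it. On differentiation the mean fibroblast signal was 8.47 to 8.57 on ES arrays and 9.01 to 9.05 on adult arrays, and 20 of 21 genes (ES) and 16 of 21 (adult) were called lower. The part of fibroblast RNA in the Hox results was not tested.

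Some other marker lists also differed between these groups. Over all genes, adult against ES cells gave 13.2% higher and 15.1% lower in Stra8, and 23.0% and 23.1% in 129SV. The difference between backgrounds was positive for 21.3% and negative for 21.8%. Differentiation gave 27.9% higher and 27.3% lower in ES cells, and 27.5% and 32.2% in adult cells. Of 12 macrophage and blood genes, 4 were called higher and 1 lower in adult than in ES cells of Stra8, 1 higher and 4 lower in 129SV, and 6 positive and none negative for the difference between backgrounds. On differentiation 2 were called higher and 6 lower in ES cells, and 2 and 8 in adult cells. In Stra8 their mean signal was 7.11 to 7.19 in adult and 6.91 to 6.98 in ES Stra8 cells. Of 24 endoderm genes, 17 were called higher and none lower in adult than in ES cells of Stra8, and 15 were called lower and none higher in 129SV. Mesoderm genes (19) gave 4 higher and 2 lower in Stra8, and 7 and 3 in 129SV. For neural genes (18) it was 5 and 3 in Stra8, and 5 and 4 in 129SV. Somatic testis genes (12) gave 3 and 1 in Stra8, and 3 and 2 in 129SV. For germ cell genes (14) it was 6 and 4 in Stra8, and 5 and 5 in 129SV. The part of these lists in the Hox results was not tested.

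**Figure D5:**
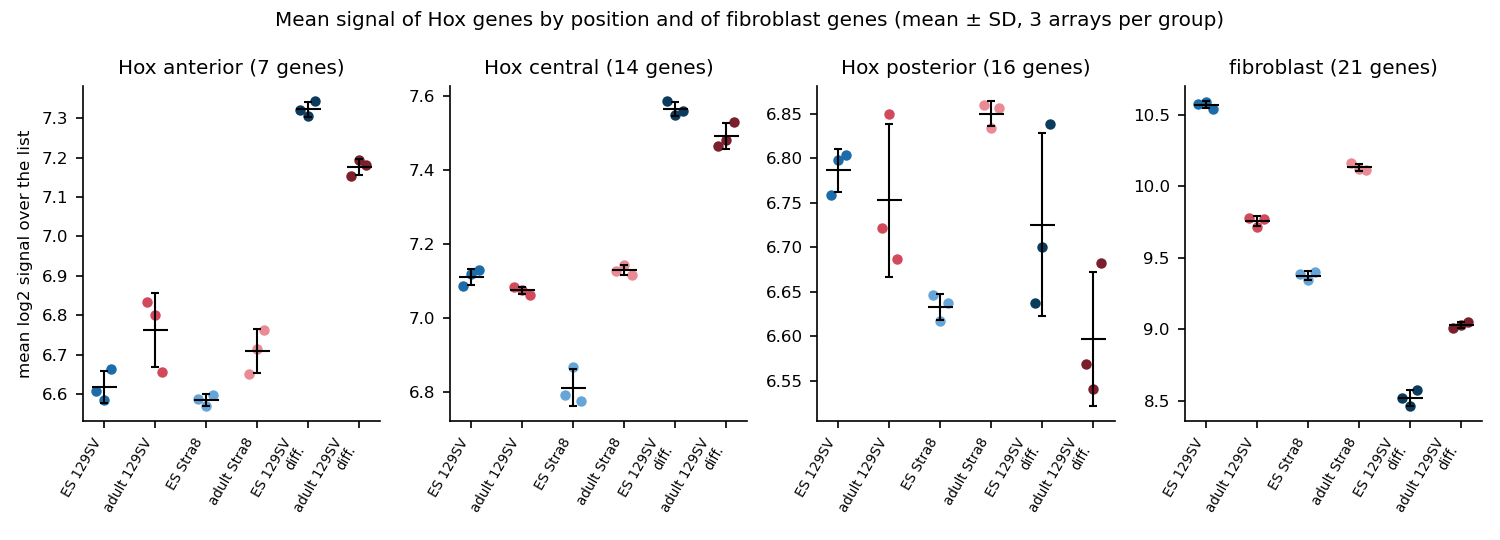
Mean log2 signal over the anterior, central and posterior Hox genes and over 21 fibroblast genes on each array by group, with the mean ± SD of 3 arrays in black; axes do not start at 0. Anterior and central Hox means are highest in the 2 differentiated groups, where the fibroblast mean is lowest, and the central and posterior means of ES Stra8 lie below those of the other undifferentiated groups.

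Genes that act on the Hox clusters or with their proteins changed as follows on differentiation. Of 21 genes of retinoic acid response and metabolism, 14 were called higher and 3 lower in ES cells, and 11 and 6 in adult cells. Cyp26a1, which degrades retinoic acid and is a classical target of it, rose by 4.80 ± 0.11 in ES and 5.47 ± 0.11 in adult cells. Rbp4, the plasma retinol carrier, rose by 3.67 ± 0.10 and 3.56 ± 0.10. Of 10 TALE-class cofactors, 5 were called higher and 1 lower in ES cells and 7 and 3 in adult cells, led by Meis2 (2.19 ± 0.08 and 3.61 ± 0.08) and Meis1 (2.02 ± 0.09 and 3.47 ± 0.09).

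Of 9 regulators of Hox clusters, 2 were called higher and 2 lower in ES cells, and 1 and 4 in adult cells. Gdf11, a ligand that promotes posterior identity, rose by 1.03 ± 0.09 and 0.60 ± 0.09. The largest change of this list was a called decrease in each comparison (-1.08 in ES and -1.22 in adult cells). Cdx1 and Cdx4, of the caudal family that activates central Hox genes, were not called in either comparison, and Cdx2 rose by 0.40 ± 0.10 in ES cells. Of 27 Polycomb and trithorax genes, 10 were called higher and 12 lower in ES cells and 11 and 11 in adult cells. The largest falls there were those of Jarid2 (-1.84 ± 0.05 in ES and -1.37 ± 0.05 in adult cells) and Phc1 (-1.84 ± 0.06 and -2.12 ± 0.06), both subunits of Polycomb complexes.

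Genes beside the clusters were called in both directions, and no test set them against the Hox genes. In ES differentiation, where 27.9% of all genes were called higher and 27.3% lower, 2 of 7 genes beside Hoxa were called higher and none lower. Beside Hoxb it was 1 higher and 4 lower of 10, beside Hoxc 3 and 4 of 8, and beside Hoxd 2 and 3 of 7. Skap2, a gene beside the Hoxa cluster, rose by 0.56 ± 0.08. Evx1, which adjoins Hoxa13, changed by 0.28 ± 0.13 and was not called. Evx2, which adjoins Hoxd13, was not called either, while Hoxd13, Hoxd11 and Hoxd10 were lower. In adult cells, beside 27.5% and 32.2% of all genes, the counts were 5 higher and none lower beside Hoxa, 2 and 5 beside Hoxb, 2 and 3 beside Hoxc and 4 and 3 beside Hoxd.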

How the data were processed

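The deposited table holds log2 signals. The authors used RMA and the Affymetrix Expression Console for it, as the submitters' processing notes say; versions and genome build are not given in the sources used here. The values were not scaled further. RMA compresses changes of dim genes, and no detection calls were used. GEO's annotation gave 1 symbol for 21789 of the 35556 probe sets, several for 1621 and none for 12146; each gene was represented by its probe set with the highest mean. limma 3.58.1 (R 4.3.3) fitted 1 mean per group to all 18 arrays (12 residual and 3.78 prior degrees of freedom), with 7 pairwise and 2 interaction contrasts, two-sided, adjusted by Benjamini-Hochberg over all genes. The method was tested on simulated data. Deviations of same-numbered arrays from their group means correlated over 0.1 in all 3 pairs of differentiated adult and ES arrays (0.144 to 0.442), taken as paired from the data alone, and in 6 of 33 pairs in all. Values were given for up to 6 called members with the largest change in each direction, and on single arrays for the 2 most variable and the brightest members of each cluster; at most 4 genes of other lists, and neighbours of the clusters, were named. The members and lists were chosen with earlier results of these data known. Alternatives covered scaling, dim genes, probe sets, array weights, variance prior, the arrays fitted, the replicate block and leaving out each array.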

Additional observations from a re-analysis of the deposited data

Results flagged for a closer look

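The effect of adult origin differed between the Stra8 and 129SV backgrounds by an interaction test (limma, adjusted p under 0.05) for 10 Hox genes. Over all genes, 21.3% were called positive and 21.8% negative in this test. On the log2 scale the differences were 1.13 for Hoxc6, 1.03 for Hoxa5, 0.93 for Hoxd10, 0.76 for Hoxc5, 0.75 for Hoxd11 and 0.59 for Hoxb9. They were 0.48 for Hoxb6, 0.45 for Hoxc4, 0.42 for Hoxd8 and 0.34 for Hoxb4. The response to differentiation differed between adult and ES cells for 11 Hox genes by the same kind of test. There 24.2% of all genes were called positive and 21.5% negative. The change in adult cells minus that in ES cells was 1.01 for Hoxa5 and 0.42 for Hoxc6. It was negative for Hoxa2 (-0.61), Hoxd1 (-0.51), Hoxb3 (-0.47), Hoxc9 (-0.46), Hoxa4 (-0.45), Hoxd8 (-0.41), Hoxc10 (-0.40), Hoxb7 (-0.39) and Hoxd4 (-0.39).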

How the results depend on the processing

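The counts of Hox genes called kept within 1.5 times their main value under most alternatives. With genes left out whose highest group mean was below 7.29, 18 Hox genes remained. Called were then 13 higher and 3 lower in ES differentiation, 4 lower in adult differentiation, 2 higher in differentiated adult against ES cells, 0 higher in Stra8 against 129SV ES cells, 5 higher in the same comparison of adult cells, and 4 positive and 5 negative differences in response. Fewer genes were tested there, and 8 of the 18 passed only through a differentiated group, so these counts are no check of the differentiation results. The 19 left out were Hoxa2, Hoxa6, Hoxa7, Hoxa9, Hoxa10, Hoxa11, Hoxa13, Hoxb5, Hoxb7, Hoxb13, Hoxc11, Hoxc12, Hoxc13, Hoxd1, Hoxd3, Hoxd4, Hoxd10, Hoxd12 and Hoxd13. In adult against ES 129SV cells 7 were called higher with arrays centred on their medians and 4 with array weights. Array weights gave 2 higher in differentiated adult against ES cells, and fitting only the arrays compared gave 0 higher and 4 lower. For Stra8 against 129SV adult cells the lower calls were 2 when centred, 0 when quantile normalised, 2 with only the arrays compared and 0 with every probe set tested. Quantile normalisation gave 4 positive differences in response. For other moves the cause was not tested.

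Leaving out each array gave, in adult against ES cells, 2 to 4 higher (4 without the first or the third adult array) and 3 to 6 lower in 129SV, and 10 to 16 higher and 0 to 0 lower in Stra8. In differentiation it gave 20 to 21 higher and 5 to 6 lower in ES, and 8 to 12 higher and 7 to 9 lower in adult cells. In differentiated adult against ES cells it gave 1 to 2 higher and 5 to 10 lower, with 2 higher without the first ES or first adult array and 5 lower without the second adult array. For Stra8 against 129SV it gave 2 to 3 higher and 12 to 14 lower in ES cells, and 6 to 9 higher and 0 to 2 lower in adult cells, 0 lower without the second 129SV or first Stra8 array and 2 without the first 129SV, the third 129SV or the second Stra8 array. The interactions gave 9 to 12 positive and 0 to 1 negative (1 without the third adult 129SV array) for origin, and 2 to 4 positive and 7 to 9 negative for response, the 4 without the third differentiated ES array.

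With the replicate number as a block, 4 were called higher in adult against ES 129SV cells and 2 lower in Stra8 against 129SV adult cells. In the comparisons other than that of differentiated adult with ES cells the numbers were not taken as pairs. In that one the block changed no call of a named gene and gave 1 higher and 9 lower. The main fit did not use this pairing, and the block was shared by all groups, most of them not taken as paired. A paired fit of the differentiated arrays alone was not run, so the effect of their pairing was not tested. Of 72 results for named genes, 61 stayed called in all their refits, 42 of 1142 refits lost a call and 0 reversed. Scaling moved the median of all genes by at most 0.054. No detection calls were used, so which dim genes lie above background is not known here.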
